A study of Rattus norvegicus with 18 samples.

Results

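The inhibitors of cyclin-dependent kinases (CDKs) and the pocket proteins downstream of them were followed through 5 groups of neonatal rat heart muscle cells. The set held 10 genes, namely the 4 INK4 inhibitors (Cdkn2a, Cdkn2b, Cdkn2c, Cdkn2d), the 3 CIP/KIP inhibitors (Cdkn1a, Cdkn1b, Cdkn1c) and the 3 pocket proteins (Rb1, Rbl1, Rbl2). They were chosen by name, with earlier results of these data known, and every probe whose platform annotation gave one of these symbols alone was taken, out of 12198 genes with such a probe on the larger array design. The larger design held 14 probes for 9 of the 10 genes, and 10 probes for 6 genes passed the filter on low values. The smaller design held 10 probes for 8 genes, of which 6 probes passed. Cdkn2d had no probe on either design. Cdkn2b (p15) was the member singled out, so its values are given as a description with no test.

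Ventricles of day 1 rats (n = 24) gave the cardiomyocytes, which Percoll gradients purified before 24 h of culture in cardiac medium. The groups were conditioned medium at 24 h and 48 h, unconditioned medium at 24 h and 48 h, and time zero, extracted before any dilution. In the first 4 groups the cardiac medium was diluted to 50% with hESC medium, conditioned by stem cells or unconditioned, with FBS at 5% and HS at 10%. The question in the series title is the action of factors from stem cells on cardiomyocyte proliferation. Of the time zero replicates 3 to 6 were hybridised to the larger array and 1 and 2 to the smaller one, and of each medium group 2 and 3 to the larger and 1 to the smaller. These numbers follow the order of the records and only name the arrays. The medium groups differ from time zero in both time in culture and medium, and the 2 cannot be told apart in that comparison. The p-values set differences between groups against the scatter between arrays. The labels name no separate cell preparations, so that scatter may be in part or wholly technical. Whether the results would hold in new preparations cannot be told.

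INK4 proteins bind CDK4 and CDK6 and keep them from pairing with D cyclins. CIP/KIP proteins bind cyclin-CDK complexes more widely and restrain CDK2 with cyclins E and A. The pocket proteins hold E2F factors in check until these kinases phosphorylate them, and cardiomyocytes are known to leave the cell cycle soon after birth.

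The promoters of Cdkn2b and Cdkn2c are shown because these were the INK4 genes with clear signal, and because Cdkn2b is a textbook target of TGF-beta through SMAD and SP1 elements. The sequences are RefSeq's for rat build GRCr8 and run from 250 bases before to 50 bases after the start site in that table, on the minus strand at chr5:109134806-109135105 for Cdkn2b and chr5:129644842-129645141 for Cdkn2c. Capitals mark a GC box (GGGCGG), a cAMP response element (TGACGTCA) or a SMAD element (CAGAC), each searched on both strands, with no match overlapping another.
Cdkn2b promoter: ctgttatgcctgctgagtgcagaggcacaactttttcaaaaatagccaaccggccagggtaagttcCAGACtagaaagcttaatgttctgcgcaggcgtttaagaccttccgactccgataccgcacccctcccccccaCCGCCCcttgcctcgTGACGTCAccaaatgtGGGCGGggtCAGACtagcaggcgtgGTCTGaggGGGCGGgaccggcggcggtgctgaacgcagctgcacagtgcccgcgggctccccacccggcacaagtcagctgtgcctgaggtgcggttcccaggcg
Cdkn2c promoter: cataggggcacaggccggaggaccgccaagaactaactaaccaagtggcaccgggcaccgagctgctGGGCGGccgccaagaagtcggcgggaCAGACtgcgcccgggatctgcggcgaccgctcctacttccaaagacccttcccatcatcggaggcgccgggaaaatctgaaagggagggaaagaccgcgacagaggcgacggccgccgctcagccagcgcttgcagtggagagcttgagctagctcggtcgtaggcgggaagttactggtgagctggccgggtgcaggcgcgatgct
The Cdkn2b window held 3 GC boxes, 1 cAMP response element 96 bases before the start site and 3 SMAD elements. The Cdkn2c window held 1 GC box, 1 SMAD element and no cAMP response element. RefSeq's Cdkn2c gene spans chr5:129639736-129645564, so this window lies wholly inside the annotated gene and not upstream of its outer end. Of 33469 promoters of 300 bases, 33.1% held the GC box, 1.83% the cAMP response element and 50.1% the SMAD element. Of the 9 members in the table, all but Cdkn1c, Cdkn2b was the only one with the cAMP response element. For E2F the forms TTTCGCGC and TTTGGCGC were searched, which 0.326% and 0.493% of promoters held, and among the members only Rbl1 held one (the first form, 1 match). A match is a run of letters and not a measured binding site.

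Values below are intensities after each array was scaled to a common median (95.5 for the larger design, 294.6 for the smaller), with a floor at 4.78 and 14.7. Levels of different probes are not set against each other, since arrays do not measure per length. Log2 changes are given with their SE after the median change of the 23694 probes tested was subtracted. A gene is called where limma's p, adjusted by Benjamini-Hochberg across those probes, is under 0.05. On the larger design 3 arrays (time zero replicate 4, time zero replicate 5 and unconditioned 48 h replicate 2) stood apart from the other 9 arrays on the first principal component (35.1% of the variance), and had a narrower spread of intensities (upper over lower quartile 22.4 to 25.7, against 38.7 to 47.8). Fits without these 3 arrays rested on replicate 3 alone in unconditioned medium at 48 h and on replicates 3 and 6 at time zero. They called more of all probes in every comparison. Cardiomyocyte markers were above the floor on all 12 arrays for 10 of 10 genes with a probe. Of 9 fibroblast markers with a probe 5 were above the floor on all 12 arrays, and their summed level was 4349 to 11056 in the 8 medium arrays and 2473 to 4384 at time zero. Of 7 endothelial markers all were above it, with sums of 1787 to 3664 in medium and 1183 to 1752 at time zero, which did not overlap. Of 7 smooth muscle and pericyte markers 6 were, with sums of 30569 to 53206 in medium and 17511 to 31022 at time zero. Of 8 leukocyte markers 4 were, at 954 to 2035 in medium and 1020 to 1558 at time zero. The fibroblast markers Pdgfra, Lum and Dcn were at the floor on 8, 7 and 4 arrays, the pericyte marker Rgs5 on 9, and the leukocyte markers Lyz2, Fcer1g and Ptprc on 12, 11 and 7. The sums are carried largely by the brightest probes, such as Col1a1 (up to 7048) for fibroblasts and Acta2 (up to 33363) for smooth muscle. Cardiomyocyte sums were 176122 to 308493 in medium and 144891 to 298366 at time zero, and overlapped. In such bulk samples fewer cells of a type and less RNA per cell cannot be told apart. The part of these markers in the changes from time zero was not tested.

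On the brightest probe of each design Cdkn2b, which encodes p15, was lower on every time zero array than on any medium array. Its probe of highest mean (8007) gave 4.78 (the floor), 5.33, 52.5 and 9.98 in time zero replicates 3 to 6. At 24 h it gave 620 and 578 in conditioned medium and 270 and 344 in unconditioned medium. At 48 h it gave 919 and 878 in conditioned medium and 452 and 858 in unconditioned medium. No medium array overlapped time zero, and within each time both conditioned arrays were above both unconditioned ones. Time zero replicate 5 was the highest of its group and is one of the 3 arrays that stood apart.

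Group means of that probe were 18.2 ± 23.0 at time zero (SD, n = 4), 599 ± 29.9 in conditioned and 307 ± 52.8 in unconditioned medium at 24 h, and 899 ± 29.2 in conditioned and 655 ± 287 in unconditioned medium at 48 h (SD, n = 2 each). From highest to lowest the order was conditioned 48 h, unconditioned 48 h, conditioned 24 h, unconditioned 24 h and time zero. The ranges of unconditioned 48 h and conditioned 24 h overlapped. Conditioned and unconditioned medium at 48 h did not overlap, but their means lay closer than 1 SD of the unconditioned group. The arrays of unconditioned 24 h lay below those of conditioned 24 h and above those of time zero. Against time zero the log2 change was 5.62 ± 0.66 in conditioned and 4.64 ± 0.66 in unconditioned medium at 24 h. At 48 h it was 6.22 ± 0.66 in conditioned and 5.84 ± 0.66 in unconditioned medium. These sizes depend on the floor, since 3 of the 4 time zero arrays lie at or near it. Over the alternatives they ran from 3.26 to 6.46 in conditioned and 2.37 to 5.51 in unconditioned medium at 24 h, and from 3.83 to 7.06 in conditioned and 3.44 to 6.96 in unconditioned medium at 48 h.

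**Figure D1:**
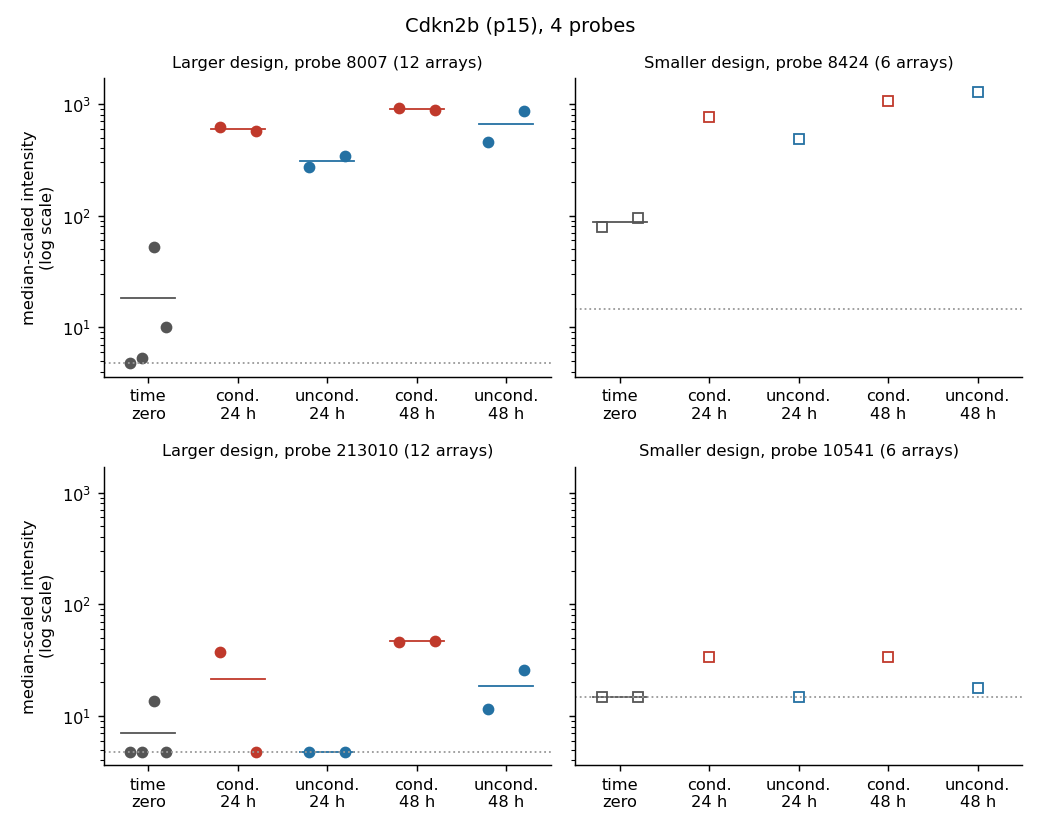
Scaled intensity of the 4 Cdkn2b probes on a log axis, by group, with filled circles for arrays of the larger design, open squares for arrays of the smaller design, lines for group means and a dotted line for the floor. Probe 8007 lies between 4.78 and 52.5 at time zero and between 270 and 919 in medium.

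Conditioned arrays exceeded unconditioned ones for Cdkn2b by more at 24 h than their own SDs, and at 48 h by less than the SD of the unconditioned pair. Conditioned against unconditioned medium gave a log2 change of 0.96 ± 0.76 at 24 h, 0.35 ± 0.76 at 48 h and 0.67 ± 0.54 for both times together. The standard errors are those of the shared fit and include the wide scatter at time zero. Without the 3 arrays that stood apart these were 0.96 ± 0.31, 0.12 ± 0.38 and 0.54 ± 0.24. Probe 8424 of the smaller design gave 78.9 and 95.4 at time zero, 758 in conditioned and 485 in unconditioned medium at 24 h, and 1072 in conditioned and 1279 in unconditioned medium at 48 h. There too all 4 medium arrays were above both time zero arrays, which lay well above the floor of that design. The log2 change from time zero was 3.38 in conditioned and 2.48 in unconditioned medium at 24 h, and 3.89 in conditioned and 3.80 in unconditioned medium at 48 h, lower than on the larger design. The log2 change of that probe between conditioned and unconditioned medium was 0.93 at 24 h and 0.12 at 48 h, with 1 array a group and no test. These are relative to the median of all probes of that design, which was -0.29 at 24 h and -0.38 at 48 h, so at 48 h the sign is opposite to that of the scaled intensities.

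The second Cdkn2b probe was much dimmer and fell under the filter. On the larger design (213010) it gave 4.78, 4.78, 13.7 and 4.78 at time zero. At 24 h it gave 37.7 and 4.78 in conditioned medium and 4.78 on both arrays of unconditioned medium. At 48 h it gave 46.2 and 46.8 in conditioned medium and 11.5 and 25.7 in unconditioned medium. On the smaller design (10541) it gave 33.9 in conditioned medium at each time, 14.7 and 17.9 in unconditioned medium at 24 h and 48 h, and the floor at time zero. The 2 probes therefore shared low values at time zero, but on probe 213010 time zero replicate 5 (13.7) was above several medium arrays. The dim probe was at the floor in unconditioned medium at 24 h, where probe 8007 was not.

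The genes whose log2 values followed Cdkn2b most closely over the 12 arrays, by Pearson's r among 9952 other genes, were Hsd11b1 (r = 0.98), Tnfrsf26 (r = 0.97), Aldh3a1 (r = 0.96), Ubash3b (r = 0.95) and Fsip1 (r = 0.94). The arrays share groups and a jump from time zero, so no p is given. Aldh3a1, an aldehyde dehydrogenase, averaged 131 at time zero, 928 in conditioned and 987 in unconditioned medium at 24 h, and 2175 in conditioned and 2361 in unconditioned medium at 48 h. Hsd11b1, which regenerates active glucocorticoid, averaged 82.8 at time zero, 287 in conditioned and 226 in unconditioned medium at 24 h, and 426 in conditioned and 379 in unconditioned medium at 48 h. Among the other members r was 0.58 for Cdkn2c, 0.13 for Cdkn1a, -0.21 for Rbl2, -0.52 for Rb1 and -0.79 for Cdkn1c.

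Cdkn2c, the INK4 inhibitor p18, was present in every group and rose in unconditioned medium at 48 h. Its brightest probe (314067) gave 1053, 569, 603 and 1133 in time zero replicates 3 to 6. At 24 h it gave 814 and 1160 in conditioned medium and 1035 and 1325 in unconditioned medium. At 48 h it gave 1412 and 1725 in conditioned medium and 1617 and 3254 in unconditioned medium. Both media at 48 h were above all 4 time zero arrays, and both media at 24 h overlapped them.

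Unconditioned medium at 48 h against time zero gave a log2 change of 1.51 ± 0.37 for Cdkn2c (limma adjusted p = 0.030). Conditioned medium at 48 h gave 0.80 ± 0.37 (limma adjusted p = 0.14). At 24 h the log2 change from time zero was 0.10 ± 0.37 in conditioned and 0.36 ± 0.37 in unconditioned medium (limma adjusted p = 0.79 and 0.68). The call at 48 h in unconditioned medium was lost on leaving out unconditioned 48 h replicate 3 (limma adjusted p = 0.30, log2 change 1.20), time zero replicate 5 (0.086), conditioned 48 h replicate 2 (0.053) or 3 (0.054), or conditioned 24 h replicate 3 (0.050). It was also lost without the filter (limma adjusted p = 0.11), without the intensity trend (0.094), with array weights (0.18) and with only the groups compared (0.19). A second probe (320111) gave 1.49 ± 0.35 in unconditioned medium at 48 h (limma adjusted p = 0.025) and 0.98 ± 0.35 in conditioned medium (limma adjusted p = 0.063). Its call was lost under the same 4 settings (limma adjusted p = 0.060 to 0.19), and without unconditioned 48 h replicate 3 (0.23) or time zero replicate 5 (0.059). Probe 141086 was dim, at 19.4 to 189, and its log2 change in unconditioned medium at 48 h was 0.64 ± 0.70 (limma adjusted p = 0.80). Probe 18510 of the smaller design gave 1320 and 1336 at time zero, 1016 in conditioned and 1949 in unconditioned medium at 24 h, and 2271 in conditioned and 3985 in unconditioned medium at 48 h.

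Between the media Cdkn2c gave a log2 change of -0.50 ± 0.30 over both times (limma adjusted p = 0.69). Without the 3 arrays that stood apart it was -0.65 (limma adjusted p = 0.036, with 0.036 to 0.76 over the alternatives other than leaving out 1 array), and on the smaller design it was -0.55 with no test. Cdkn2a, whose locus makes p16 and ARF and which neighbours Cdkn2b in RefSeq's annotation, had a dim probe (319056) under the filter. It gave 7.96, 9.41, 21.7 and 25.7 at time zero, 34.9 and 4.78 in conditioned and 14.97 and 6.04 in unconditioned medium at 24 h, and 37.9 and 53.4 in conditioned and 4.78 and 15.8 in unconditioned medium at 48 h. The 2 conditioned arrays at 48 h were the highest of the 12. On the smaller design its probe was at the floor on all 6 arrays.

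**Figure D2:**
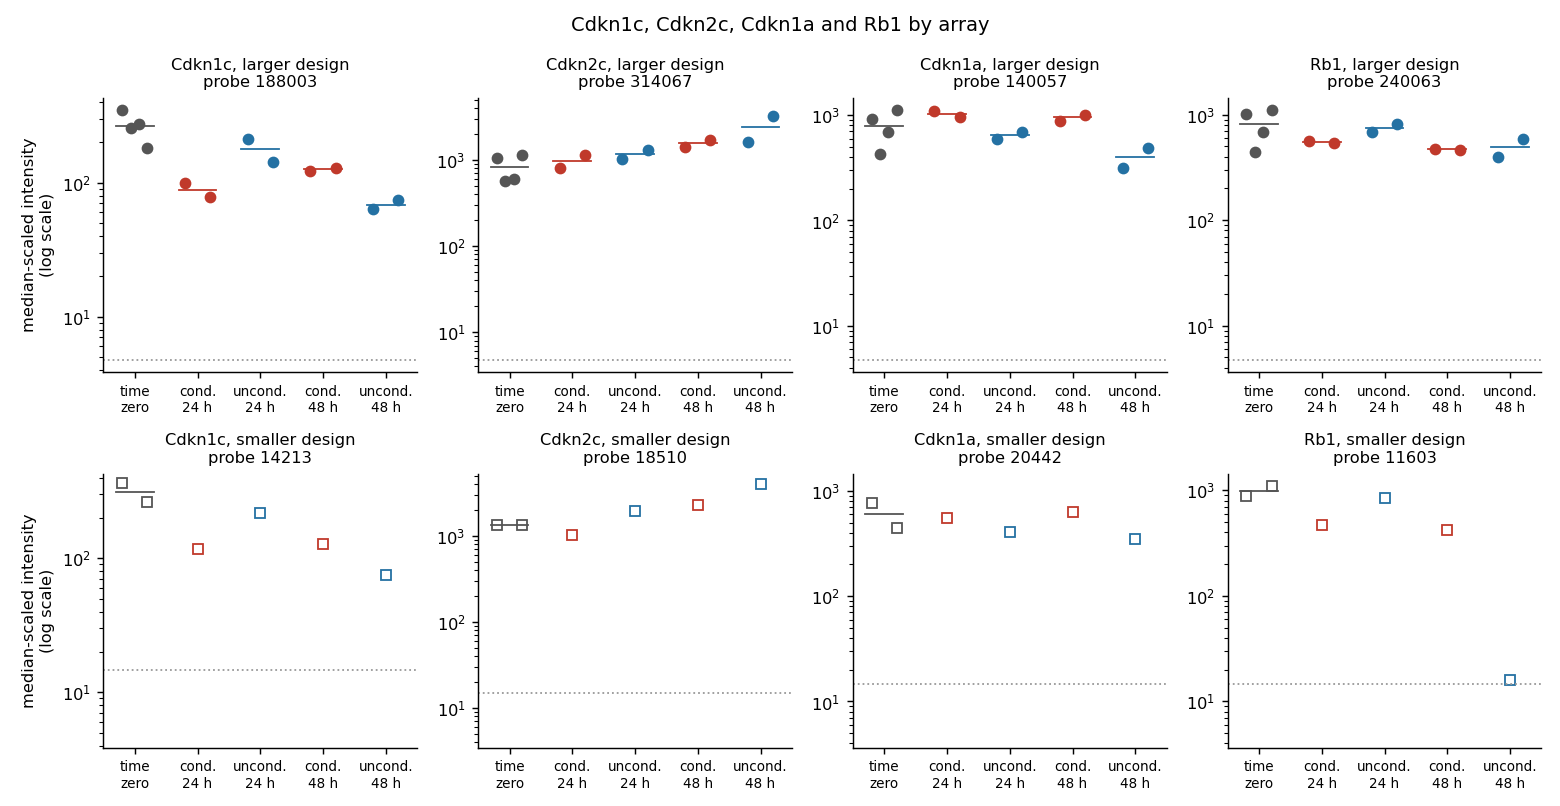
Scaled intensity on a log axis of Cdkn1c, Cdkn2c, Cdkn1a (probes 140057 and 20442) and Rb1 by group, on the larger design above and the smaller one below, with a point per array, lines for group means and a dotted line for the floor. Cdkn1c is lowest in unconditioned medium at 48 h on both designs, and the 48 h unconditioned array of the smaller design stands near the floor for Rb1 at 15.9.

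Though the brightest Rb1 probe also averaged lower in medium, Cdkn1c, which encodes p57, was the only tested member called lower against time zero. Its probe (188003) gave 346, 256, 275 and 181 in time zero replicates 3 to 6. At 24 h it gave 99.3 and 78.4 in conditioned medium and 212 and 143 in unconditioned medium. At 48 h it gave 123 and 129 in conditioned medium and 63.1 and 73.7 in unconditioned medium. Conditioned medium at both times and unconditioned medium at 48 h were below every time zero array, and unconditioned medium at 24 h overlapped time zero.

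Against time zero Cdkn1c fell in both groups that passed the test, with a log2 change of -1.73 ± 0.34 in conditioned medium at 24 h (limma adjusted p = 0.016). In unconditioned medium at 48 h its log2 change was -1.93 ± 0.34 (limma adjusted p = 0.0038). The log2 change was -1.19 ± 0.34 in conditioned medium at 48 h (limma adjusted p = 0.086, with 0.0032 to 0.15 over the alternatives other than leaving out 1 array) and -0.75 ± 0.34 in unconditioned medium at 24 h (limma adjusted p = 0.64). The call at 24 h was lost without conditioned 24 h replicate 2 (limma adjusted p = 0.14) or 3 (limma adjusted p = 0.34). Without the 3 arrays that stood apart the log2 change was -1.49 in conditioned medium at 24 h (limma adjusted p = 0.015) and -1.76 in unconditioned medium at 48 h (limma adjusted p = 0.026). Probe 14213 of the smaller design gave 365 and 265 at time zero, 116 in conditioned and 218 in unconditioned medium at 24 h, and 129 in conditioned and 75.2 in unconditioned medium at 48 h.

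The order of the media for Cdkn1c was opposite at the 2 times. At 24 h both conditioned arrays were below both unconditioned ones, with a log2 change of -0.99 ± 0.39 (limma adjusted p = 0.74). At 48 h both conditioned arrays were above both unconditioned ones, with a log2 change of 0.71 ± 0.39 (limma adjusted p = 0.53). The difference of the medium effects, 48 h minus 24 h, was 1.69 ± 0.56 on the log2 scale (limma adjusted p = 1.00). Of the 23694 probes 0 were called for that difference in limma, and 518 (2.19%) had an unadjusted p under 0.05, Cdkn1c among them. On the smaller design the same difference was 1.75, from 1 array a group with no test. Over both times the log2 change between the media was -0.13 ± 0.28 (limma adjusted p = 0.98).

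Cdkn1a, which encodes p21 and is a target of p53, had probes that disagreed. Probe 92059 was bright on all 12 arrays, at 13986 to 25341, with a log2 change between conditioned and unconditioned medium of 0.07 ± 0.26 over both times (limma adjusted p = 0.89). Probe 140057 gave 929, 427, 697 and 1110 at time zero, 1100 and 956 in conditioned and 598 and 687 in unconditioned medium at 24 h, and 889 and 1014 in conditioned and 318 and 484 in unconditioned medium at 48 h. On that probe both conditioned arrays were above both unconditioned arrays at each time, and time zero spanned nearly the whole range.

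For probe 140057 the log2 change between conditioned and unconditioned medium was 0.89 ± 0.29 over both times, which missed the threshold (limma adjusted p = 0.16). It was 0.67 ± 0.41 at 24 h and 1.10 ± 0.41 at 48 h (limma adjusted p = 1.00 and 0.36). Over both times it was called without the 3 arrays that stood apart, at 0.84 (limma adjusted p = 0.0068), and under quantile normalization, at 0.84 (limma adjusted p = 0.019). It was also called with 75th percentile scaling (limma adjusted p = 0.022), centring (0.044), array weights (0.0084) or only the groups compared (0.016). Over the alternatives other than leaving out 1 array the limma adjusted p ran from 0.0068 to 0.28. With each array left out in turn it ran from 0.028, without time zero replicate 4, to 0.55, and the other arrays' omission left it uncalled. Probe 20442 of the smaller design gave 765 and 444 at time zero, 550 in conditioned and 409 in unconditioned medium at 24 h, and 634 in conditioned and 345 in unconditioned medium at 48 h. The bright probe of that design (7537) gave 19349 in conditioned and 31345 in unconditioned medium at 24 h, and 20682 in conditioned and 25029 in unconditioned medium at 48 h, the opposite order. Relative to the median of all probes its log2 change was -0.41 at 24 h and 0.10 at 48 h, so the opposite order at 48 h is lost after centring. Cdkn1b, which encodes p27, was dim and under the filter on both designs, at 27.2 or lower on all 12 arrays of the larger one.

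Rb1, the retinoblastoma protein, was lower on average in medium than at time zero on its brightest probe, without a call. The second probe (147089) averaged 698 in unconditioned medium at 24 h and 684 at time zero, and was lower in the other medium groups. Probe 240063 gave 1012, 441, 681 and 1099 at time zero, 566 and 541 in conditioned and 691 and 810 in unconditioned medium at 24 h, and 478 and 461 in conditioned and 401 and 582 in unconditioned medium at 48 h. Every group overlapped time zero, whose lowest array (replicate 4) is one of the 3 that stood apart. The log2 change from time zero was -0.64 ± 0.35 in conditioned and -0.21 ± 0.35 in unconditioned medium at 24 h, and -0.86 ± 0.35 in conditioned and -0.67 ± 0.35 in unconditioned medium at 48 h (limma adjusted p = 0.60, 0.99, 0.30 and 0.46).

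Without the 3 arrays that stood apart Rb1 was called in conditioned medium at 24 h (-0.91, limma adjusted p = 0.0057), in conditioned medium at 48 h (-1.13, limma adjusted p = 9.6e-04) and in unconditioned medium at 48 h (-0.85, limma adjusted p = 0.033). Over the alternatives other than leaving out 1 array the limma adjusted p ran from 0.0057 to 0.73, from 9.4e-04 to 0.50 and from 0.018 to 0.90 in these 3 groups. Between the media Rb1 gave a log2 change of -0.32 ± 0.29 over both times (limma adjusted p = 0.84). The second probe (147089) gave -0.22 ± 0.30 (limma adjusted p = 0.92). Probe 11603 of the smaller design gave 894 and 1095 at time zero, 467 in conditioned and 840 in unconditioned medium at 24 h, and 418 in conditioned and 15.9 in unconditioned medium at 48 h. That last value lies near the floor of 14.7, and neither larger-design array of the group showed such a drop.

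The other pocket proteins gave little signal. Rbl2, which encodes p130, passed the filter with one dim probe (32111) at 18.0 to 61.4, and its log2 change between the media was 0.02 ± 0.51 (limma adjusted p = 0.97). Rbl1, which encodes p107, was under the filter at 22.0 or lower, with 8 of 12 arrays at the floor.

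**Figure D3:**
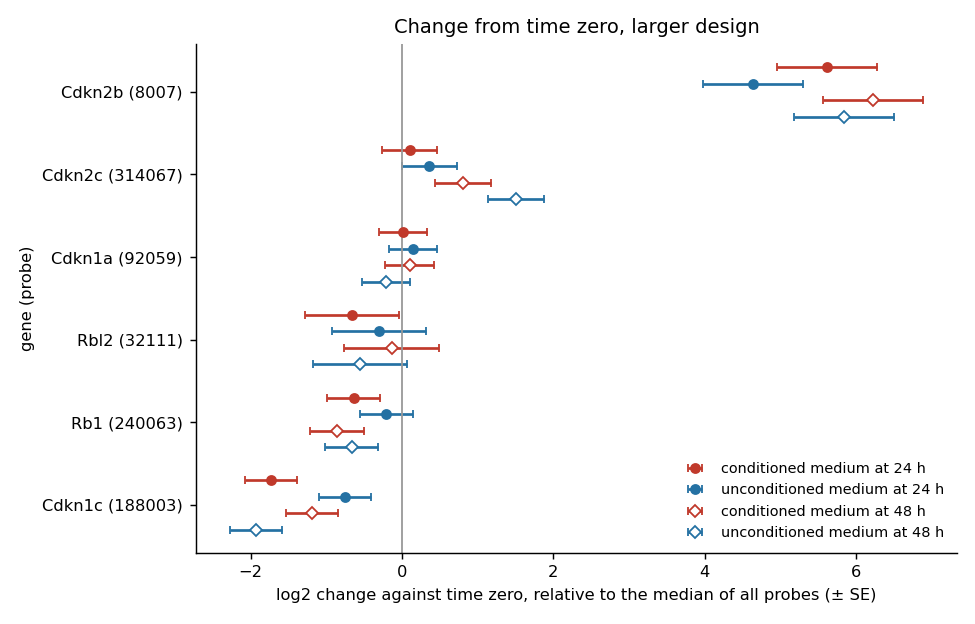
Log2 change against time zero, relative to the median of all probes, for the brightest probe of each of the 6 members that passed the filter, with points for the 4 medium groups and bars for ± SE. Cdkn2b lies between 4.64 and 6.22, and Cdkn1c between -1.93 and -0.75.

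Beside Cdkn2b 5 members were tested, each by its probe of highest mean. Against time zero 1 of the 5 was called in conditioned medium at 24 h (Cdkn1c, lower), with 3.17% of all probes called in that comparison. In conditioned medium at 48 h 0 of 5 were called by limma, with 2 at an unadjusted p under 0.05 (19.3% of all probes), and 6.47% of all probes were called. Unconditioned medium at 24 h had 0 of 5 called by limma, with 0 at an unadjusted p under 0.05 (9.88% of all probes), and 0.815% of all probes were called. Unconditioned medium at 48 h had 2 of 5 called (Cdkn2c higher, Cdkn1c lower), with 2.90% of all probes called. These comparisons share the time zero arrays.

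Between conditioned and unconditioned medium 0 of 5 members were called by limma over both times, with 0 at an unadjusted p under 0.05 (11% of all probes) and 0.920% of all probes called. At 24 h 0 of 5 were called by limma, with 1 at an unadjusted p under 0.05 (5.29% of all probes) and 0.245% of all probes called. At 48 h 0 of 5 were called by limma, with 1 at an unadjusted p under 0.05 (8.69% of all probes) and 0.148% of all probes called. The median log2 change of the 5 was -0.37 at 24 h, 0.28 at 48 h and -0.13 with both times together. The median of all probes is 0 by construction. In simulated data 0 of 200 2-fold changes were called over both times, so a count of 0 does not show genes unchanged.

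**Figure D4:**
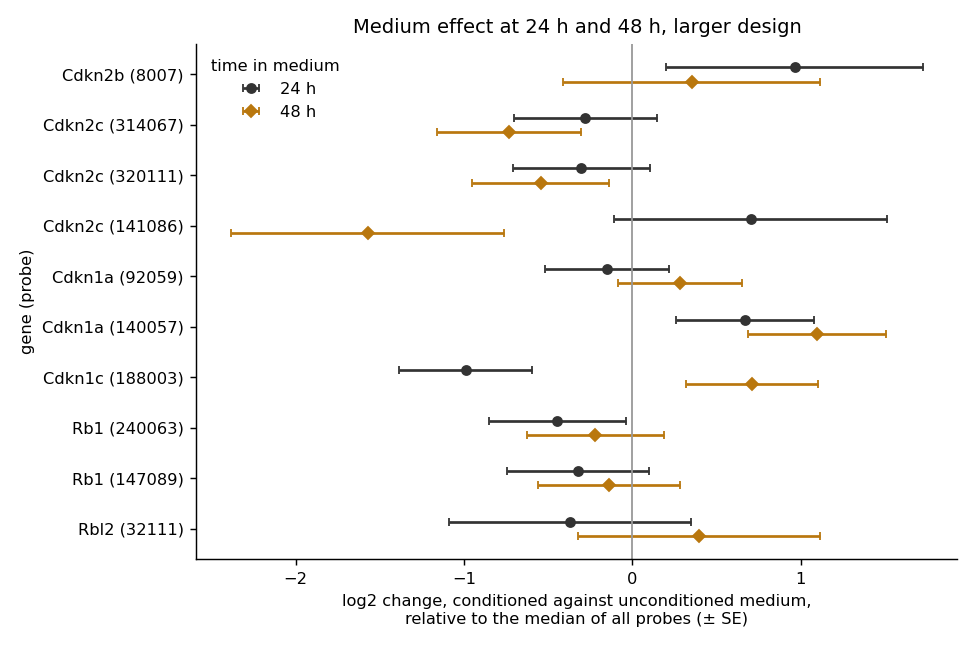
Log2 change of conditioned against unconditioned medium at 24 h and 48 h, relative to the median of all probes, for the 10 member probes that passed the filter, with bars for ± SE. Cdkn1c lies at -0.99 at 24 h and 0.71 at 48 h, and probe 140057 of Cdkn1a at 0.67 and 1.10.

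The partners of the inhibitors, from a list of 10 kinases and cyclins of which 9 were tested, were called against time zero in 3 of the 4 medium groups. In conditioned medium at 48 h 4 of 9 rose (5.39% of all probes were called higher) and 0 fell, with a median log2 change of 0.36 over the 9. Ccnd1, the cyclin D1 that activates CDK4 and CDK6, rose by 1.51 ± 0.36 (limma adjusted p = 0.0080), averaging 5379 ± 52.0 in conditioned medium (SD, n = 2) and 1782 ± 672 at time zero (SD, n = 4). Cdk6, a kinase that INK4 proteins bind, rose by 1.50 ± 0.39 (limma adjusted p = 0.015). Ccna2 (cyclin A2) rose by 1.40 and Cdk1, the mitotic kinase, by 1.69 (limma adjusted p = 0.012 and 0.011).

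In unconditioned medium at 48 h 2 of 9 rose (2.03% of all probes were called higher), Ccna2 by 1.71 and Cdk1 by 1.83 (limma adjusted p = 0.011 and 0.021), and 0 fell. In conditioned medium at 24 h 1 of 9 rose (2.57% of all probes were called higher), Ccnd1 by 1.18 (limma adjusted p = 0.045), and in unconditioned medium at 24 h 0 of 9 were called by limma, with 5 at an unadjusted p under 0.05 (9.88% of all probes, of which 0.815% were called). Cdk4 gave a log2 change of 0.36 ± 0.37 in conditioned and -0.28 ± 0.37 in unconditioned medium at 48 h (limma adjusted p = 0.50 and 0.87). Between the media 0 of 9 were called by limma over both times or at either time, and 0 had an unadjusted p under 0.05. Over both times the median was 0.02, with Ccnd1 at 0.43 ± 0.29, Cdk4 at 0.36 ± 0.30, Cdk6 at 0.34 ± 0.32 and Ccnd3 at -0.44 ± 0.27 (limma adjusted p = 0.56, 0.67, 0.70 and 0.70).

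Of 15 E2F, DP and DREAM genes 8 were tested, and 0 were called by limma in any comparison. Of the 8, 1 had an unadjusted p under 0.05 in conditioned medium at 48 h against time zero (19.3% of all probes) and 0 in the other comparisons. E2f1 gave a log2 change of -0.41 ± 0.29 between the media over both times (limma adjusted p = 0.77), and Tfdp2, a DP partner, gave -0.73 ± 0.34 (limma adjusted p = 0.53). Of 15 E2F target genes 11 were tested. Against time zero Rrm2, a ribonucleotide reductase subunit, rose by 2.07 ± 0.44 in conditioned and 2.27 ± 0.44 in unconditioned medium at 48 h (limma adjusted p = 0.0043 and 0.0069). Mcm5, part of the replicative helicase, rose by 1.29 ± 0.33 in conditioned and 1.62 ± 0.33 in unconditioned medium at 48 h (limma adjusted p = 0.013 and 0.010), and by 1.28 in unconditioned medium at 24 h (limma adjusted p = 0.046). The median of the 11 against time zero was 0.83 in conditioned and 0.48 in unconditioned medium at 48 h. Between the media 0 of 11 were called by limma and 0 had an unadjusted p under 0.05 over both times. Of the 11, 10 lay below the median of all probes over both times, with a median of -0.14. Tyms, thymidylate synthase, was the exception at 0.49 ± 0.29 (limma adjusted p = 0.50). At 24 h 10 of the 11 lay below the median of all probes (median -0.38), and at 48 h 7 of the 11 did (median -0.09). That median splits all probes evenly by construction, and the 11 genes share the same arrays, so these counts are not a test.

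Of 22 genes that regulate the inhibitors or their turnover 17 were tested. Against time zero 2 of 17 were called lower by limma in each of the 4 medium groups. In conditioned medium at 48 h 2 of 17 were called higher, and in the other groups 0 of 17. Of all probes 0.815% to 6.47% were called in these comparisons. Id1, a dominant-negative partner of factors that switch on inhibitor genes, fell against time zero in all 4 medium groups, with log2 changes of -2.06 in conditioned and -2.92 in unconditioned medium at 24 h, and -2.36 in conditioned and -2.56 in unconditioned medium at 48 h (limma adjusted p = 0.0041, 7.4e-04, 6.4e-04 and 5.8e-04). Its relative Id2 averaged 537 at time zero, 51.9 in conditioned and 92.5 in unconditioned medium at 24 h, and 53.3 in conditioned and 33.2 in unconditioned medium at 48 h, and fell in all 4 medium groups (limma adjusted p = 3.1e-04 to 0.031). Tgfb1, the cytokine known to induce Cdkn2b, rose in conditioned medium at 48 h by 2.93 ± 0.71 (limma adjusted p = 0.013). It averaged 179 ± 23.9 in conditioned medium (SD, n = 2) and 28.5 ± 19.9 at time zero (SD, n = 4). The other medium groups also averaged above time zero, without a call. These means were 82.5 in conditioned and 93.9 in unconditioned medium at 24 h, and 66.4 in unconditioned medium at 48 h. The lowest time zero array for Tgfb1 was at the floor, and the log2 change was 1.53 with a pseudocount, 2.04 without the 3 arrays that stood apart, 2.27 without time zero replicate 5 and 1.85 on the smaller design. Foxm1, a cell-cycle transcription factor, rose in conditioned medium at 48 h by 0.93 ± 0.30 (limma adjusted p = 0.035). It averaged 141 at time zero, 289 in conditioned and 250 in unconditioned medium at 24 h. At 48 h it averaged 300 in conditioned and 255 in unconditioned medium. Between the media 0 of 17 were called by limma over both times, with 2 at an unadjusted p under 0.05 (11% of all probes, of which 0.920% were called) and a median log2 change of 0.15. Foxo3, which activates Cdkn1b, was at 0.66 ± 0.24 (limma adjusted p = 0.19), and was called with array weights (0.026), with only the groups compared (0.049) and with the 3 arrays that stood apart removed (0.027). Over the alternatives other than leaving out 1 array its limma adjusted p ran from 0.026 to 0.86.

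Of 13 other p53 targets 11 were tested and 0 were called by limma in any comparison, with 1 at an unadjusted p under 0.05 between the media over both times (11% of all probes). The median log2 change between the media over both times was 0.02. Fas, a death receptor, had the smallest p, with a log2 change of 1.05 ± 0.31 (limma adjusted p = 0.11) and means of 1919 in conditioned and 933 in unconditioned medium at 24 h, and 1864 in conditioned and 825 in unconditioned medium at 48 h. Fas was called under quantile normalization (limma adjusted p = 0.017), 75th percentile scaling (0.021), centring (0.036), array weights (0.0039), only the groups compared (0.0092), the 3 arrays that stood apart removed (0.0078) and without time zero replicate 4 (0.014). Over the alternatives other than leaving out 1 array the limma adjusted p ran from 0.0039 to 0.27. The Fas arrays in conditioned medium were above all those in unconditioned medium. Fas was picked by its p, and the share of all probes separated in this way was not counted.

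Of 22 calls of list genes 16 were lost on leaving out at least 1 array. In conditioned medium at 48 h leaving out replicate 3 of that group ended the calls of Ccnd1, Cdk6, Ccna2, Cdk1, Rrm2, Mcm5, Foxm1 and Tgfb1 (limma adjusted p = 0.11 to 0.25), and leaving out replicate 2 ended all of these but Rrm2 (limma adjusted p = 0.12 to 0.39). The log2 changes moved less, from 1.37 to 1.63 for Ccnd1, 1.42 to 1.69 for Cdk6, 1.23 to 1.54 for Ccna2 and 1.81 to 2.28 for Rrm2 with any array left out. In unconditioned medium at 48 h leaving out replicate 3 of that group ended the calls of Ccna2, Cdk1, Mcm5 and Rrm2 (limma adjusted p = 0.13 to 0.23). The call of Ccnd1 in conditioned medium at 24 h and that of Mcm5 in unconditioned medium at 24 h were each lost without any of 8 arrays, and that of Id2 in unconditioned medium at 24 h without any of 4 (limma adjusted p up to 0.52 for Ccnd1, 0.53 for Mcm5 and 0.67 for Id2). Id1 lost its call in conditioned medium at 24 h without replicate 2 (limma adjusted p = 0.096) or 3 (limma adjusted p = 0.097) of that group. Id1 and Id2 kept their calls at 48 h in both media whichever array was left out.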

How the data were processed

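RNA of 18 samples was biotin-labelled and hybridised with the CodeLink iExpress kit, per the labels. The deposited values are 1-colour linear intensity in 2 tables (33849 probes on 12 arrays and 9906 on 6). The scanner, its software and any background correction or normalization are not given in the sources used here. Each array was scaled to the geometric mean of its table's array medians, floored at 0.05 of that median and log2-transformed. The dimmest 30% of probes by mean were dropped (23694 kept). One fit held the 5 groups of the larger table (limma 3.58.1, R 4.3.3; lmFit, eBayes with intensity trend; 7 residual and 10.4 prior degrees of freedom), and p tests the change before the median change was subtracted. That median was 0.08 between the media over both times, and from 0.01 to 0.19 against time zero. The smaller table served for values only. No arrays held identical values.

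Probes were named from the platform annotation where it gave 1 gene (16753 of 33849), and a gene stood for its brightest probe. Members and lists were chosen with earlier results of these data known. Named were all members, up to 4 genes a list with the smallest p between the media, any gene called, Ccnd1, Cdk4, Cdk6, E2f1, and the 5 genes most correlated with Cdkn2b. Alternatives were quantile normalization, 75th percentile scaling, centring, a filter at the 50th percentile or none, another floor (0.2 of the median) or a pseudocount (0.5 of it), no trend, array weights, averaged probes, only the groups compared, both tables, the smaller table, and arrays left out. The pipeline was tested on simulated data built from the probes' own means and spread, with 200 probes changed. At 2-fold 0 of 200 were called between the media over both times, and 0 in conditioned medium at 48 h against time zero. At 4-fold 71.5% and 59.5% were called, and at 8-fold 87% and 82.5%. An absent call is therefore no sign of an absent change, above all near 2-fold. In the data 1532 probes were called in conditioned medium at 48 h against time zero, more than the 200 changed here. Benjamini-Hochberg adjustment is stricter where fewer probes change, so the simulated shares are not the sensitivity of the tests in the data. Plots came from matplotlib 3.10.9 (Python 3.11.15).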

Additional observations from a re-analysis of the deposited data

Results flagged for a closer look

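The dim Cdkn2b probe 213010 had 1 time zero array (replicate 5) above the floor and the other 3 at it, so the gap over the range of the group was 1. The 3 tied floor values give that ratio by construction, and Dixon's critical value does not apply to them, so no array is shown to stand apart by it. The medium effect on Cdkn1c had opposite signs at the 2 times on every array, with a difference of 1.69 on the log2 scale, which was not called after adjustment (limma adjusted p = 1.00). Probes under the filter were in no test, and 2 of them gave signal in conditioned medium at 48 h above every time zero array. The Cdkn2a probe 319056 averaged 45.7 there, with time zero at 7.96 to 25.7, and the Cdkn2b probe 213010 averaged 46.5, with time zero at 4.78 to 13.7. Both probes were dim, and the Cdkn2a probe of the smaller design was at the floor on all its arrays. The share of all probes with such a separation was not counted, so this is not a result about the members.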

How the results depend on the processing

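Under the alternatives the count of members called in conditioned medium at 48 h against time zero, 0 as reported, was 3 under quantile normalization, 75th percentile scaling or array weights, 1 with centring or on leaving out the 3 arrays, and 2 with both tables. In conditioned medium at 24 h the count of 1 was 0 without the filter, and 2 with array weights or without the 3 arrays. In unconditioned medium at 48 h the count of 2 was 1 without the filter, without the trend or with array weights, 0 with only the groups compared, and 3 without the 3 arrays or with both tables. Between the media over both times 0 was 1 without the 3 arrays (Cdkn2c). With each array left out in turn the counts were 0 to 1 in conditioned medium at 48 h, 0 to 1 in conditioned medium at 24 h and 1 to 2 in unconditioned medium at 48 h. A group left with 1 array was assumed to vary like the others. Without the 3 arrays more of all probes were called too, in each of these comparisons. The shares of all probes called under the other alternatives are not given, so these counts are not a result about the members. The cause of these shifts was not tested.

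Some log2 changes turned their direction. Cdkn2c in conditioned medium at 24 h was -0.0044 under quantile normalization, -0.056 with array weights, -0.15 without the 3 arrays, -0.022 with averaged probes, -0.060 with both tables and -0.14 on the smaller table. In unconditioned medium at 24 h it was -0.083 with averaged probes. Between the media Rbl2 was -0.031 with a pseudocount, probe 92059 of Cdkn1a was -0.066 with both tables and -0.16 on the smaller table, Rb1 was 0.47 with both tables and 2.26 on the smaller table, where 1 array lay near the floor, and Cdkn1c was 0.26 on the smaller table. Cdk4 in unconditioned medium at 48 h was 0.11 without the 3 arrays. With arrays left out Rbl2 ran from -0.52 to 0.55, Cdkn1c from -0.29 to 0.0404, Cdkn2c in conditioned medium at 24 h from -0.15 to 0.32, its dim probe 141086 in unconditioned medium at 48 h from -0.24 to 1.52, and Cdk4 there from -0.77 to 0.20. Cdkn1c in unconditioned medium at 48 h was called with every array left out (limma adjusted p = 0.0019 to 0.034), but not with only its groups compared (limma adjusted p = 0.054). Of 22 calls of list genes 6 held under every alternative with a test.

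No paired analysis was possible because the labels carry no replicate numbers, and those used here only name the arrays. Precision was limited by the number of arrays (2 in each medium group), and probes at the floor give only a bound. Whether a dish's RNA went onto both designs is not given by the labels.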
